A study of Mus musculus with 32 samples.

Results

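The interferon regulatory factors are a family of transcription factors that share a DNA-binding domain with a conserved row of tryptophans, which reads GAAA repeats in promoters and enhancers. The 8 mouse genes followed here were Irf1, Irf2, Irf3, Irf4, Irf5, Irf7, Irf8 and Irf9, chosen by gene symbol from the 55385 genes of the deposited tables. IRF3, IRF5 and IRF7 lie dormant in the cytoplasm until kinases downstream of nucleic acid sensors and Toll-like receptors phosphorylate them, after which they enter the nucleus and switch on interferon genes. IRF9 is the DNA-binding part of the complex that answers type I interferon, and one of the genes that this complex switches on is Irf7, so that interferon primes its own production. IRF1 is an activator induced by interferon gamma and IRF2 its antagonist on shared sites, while IRF8 and IRF4 bind DNA mainly with partners such as PU.1 and BATF, and IRF8 is needed for microglia to form and mature.

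The cells were microglia sorted by flow cytometry for yellow fluorescent protein (EYFP) from the cerebral cortex of adult C57BL/6 mice. The injured groups came from the site of a stab wound 1, 4, 7 or 14 days earlier, and the non-injured groups from the matching place in the opposite hemisphere at the same 4 times, in females and in males. Mice of all groups were heterozygous for Cx3cr1CreER, a recombinase switched on by tamoxifen and driven from the fractalkine receptor locus, and received tamoxifen daily at 180 mg per kg at 8 to 10 weeks of age, before the wound. The details used here do not settle whether EYFP marks cells with this locus active at the time of tamoxifen or at sorting. Cells other than microglia may therefore be among those sorted. The non-injured side is the other hemisphere of a wounded animal, not an unwounded one. Whether samples were taken from separate animals is not stated in the labels.

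Each of the 16 groups was deposited as 2 columns, whose differences were close to counting noise, so the columns were summed into 16 libraries of 20863982 to 55378788 counts, 8 on each side, which form 8 day-by-sex pairs. The p-values measure the spread between these samples alone. In the fit of the injury effect, the spread of a gene comes from how far female and male pairs of a day differ. It is then drawn towards the spread of other genes, which weighed as 5.32 degrees of freedom (median) beside 4 of the gene itself. The test between sexes and the test of day on the non-injured side used fits of their own. The day 4 male non-injured library stood apart, with 25.7% of its counts from mitochondrial transcripts and the 7 neuron markers summing to 7871 CPM (counts scaled to library size), against at most 1809 CPM in the other non-injured libraries. The day 7 male non-injured library had the highest sum of the 10 monocyte markers on its side, 271.7 CPM. The 12 microglia markers summed to between 13540 and 52160 CPM in injured libraries and between 12800 and 72370 CPM in non-injured libraries. In 7 of 8 pairs that sum was lower at the wound, and averaged over days 7 of the 12 fell, 2 rose and 3 were not called, with 7 called lower at day 1. Over all genes tested, 7.96% were called lower and 7.76% higher averaged over days, and 0.58% lower at day 1. The part of this shift of the microglia markers in the changes of the 8 genes was not tested.

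The gene IDs of all 8 were found in GENCODE M21 (GRCm38), a build used here for position alone. It places Irf7 at chr7:141262706-141266481 (minus strand), Irf3 at chr7:44997648-45002848 (plus strand), Irf9 at chr14:55603571-55610030 (plus strand) and Irf1 at chr11:53770014-53778374 (plus strand). It places Irf2 at chr8:46739732-46847458 (plus strand), Irf5 at chr6:29526625-29541871 (plus strand), Irf8 at chr8:120736358-120756694 (plus strand) and Irf4 at chr13:30749226-30766976 (plus strand).

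The transcription start regions of the family were searched for short sequences known from interferon-responsive genes. The 250 bases before the annotated start were read from RefSeq for 11 starts of the 8 genes (build GRCm38.p6) and read on both strands for 3 motifs. These were the core of the interferon-stimulated response element, GAAANNGAAA, the gamma-activated site, TTCNNNGAA, and the composite element of ETS factors with IRF8 or IRF4, GGAANNGAAA. In all 32851 promoters of the same length, 2.98%, 7.02% and 2.3% held them in that order. Matches were found in 3 of the 11 regions, those of Irf1, Irf2 and the first start of Irf8, and they describe letters, not measured binding. The region of Irf7, the member that rose most at the wound, is shown beside these 3, with matches in capitals, 5′ to 3′ on the strand of the gene.
Irf7 promoter: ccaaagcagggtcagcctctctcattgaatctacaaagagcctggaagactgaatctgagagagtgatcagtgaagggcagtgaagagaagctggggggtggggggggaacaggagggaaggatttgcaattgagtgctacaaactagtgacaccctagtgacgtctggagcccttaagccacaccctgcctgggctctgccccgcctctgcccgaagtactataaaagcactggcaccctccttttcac
Irf1 promoter: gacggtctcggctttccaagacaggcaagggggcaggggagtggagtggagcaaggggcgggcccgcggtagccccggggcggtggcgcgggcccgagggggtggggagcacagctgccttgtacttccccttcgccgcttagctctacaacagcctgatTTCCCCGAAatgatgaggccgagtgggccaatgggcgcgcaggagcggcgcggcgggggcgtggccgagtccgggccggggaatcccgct
Irf2 promoter: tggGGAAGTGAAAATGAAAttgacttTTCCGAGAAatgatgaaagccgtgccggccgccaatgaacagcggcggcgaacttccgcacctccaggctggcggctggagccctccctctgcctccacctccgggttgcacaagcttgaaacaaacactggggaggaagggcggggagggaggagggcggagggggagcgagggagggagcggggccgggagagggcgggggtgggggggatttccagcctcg
Irf8 promoter: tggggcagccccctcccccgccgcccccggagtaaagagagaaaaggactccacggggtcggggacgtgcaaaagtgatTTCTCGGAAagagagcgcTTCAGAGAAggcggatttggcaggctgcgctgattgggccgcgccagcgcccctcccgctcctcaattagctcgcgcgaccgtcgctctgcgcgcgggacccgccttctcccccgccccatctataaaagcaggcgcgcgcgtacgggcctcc
The Irf7 region lies at chr7:141266425-141266674 on the minus strand, and these 3 sets of letters were not in this window. The Irf1 region (chr11:53769764-53770013, plus strand) held the gamma-activated site TTCCCCGAA from 90 to 82 bases before the start. The Irf2 region (chr8:46739495-46739744, plus strand) held the composite GGAAGTGAAA, which runs into the response element core GAAAATGAAA, and the gamma-activated site TTCCGAGAA downstream of both. The Irf8 region (chr8:120736108-120736357, plus strand) held the gamma-activated sites TTCTCGGAA and TTCAGAGAA.

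Within a library, levels of different genes were compared as TPM (the transcript share scaled to a fixed sum), which corrects for transcript length. Irf8 was the most abundant of the 8 in all 16 libraries and Irf4 the least abundant in all 16. Irf8 had a median of 234 TPM (78.3 to 368 TPM) in injured libraries and of 304.8 TPM (72.4 to 555 TPM) in non-injured libraries. Irf5 came next by median on both sides, at 112 TPM in injured libraries and 205.1 TPM in non-injured libraries. Below Irf5 the order differed between the sides. In injured libraries it ran Irf7 (98.4 TPM), Irf9 (66.5 TPM), Irf3 (58.1 TPM), Irf2 (31.5 TPM), Irf1 (19.7 TPM) and Irf4 (0.337 TPM). In non-injured libraries it ran Irf3 (91.8 TPM), Irf9 (86.6 TPM), Irf2 (70.0 TPM), Irf1 (44.8 TPM), Irf7 (22.2 TPM) and Irf4 (2.25 TPM). Several neighbours were not separated beyond their spread: in injured libraries Irf5 exceeded Irf7 in 3 of 8 and Irf9 exceeded Irf3 in 4 of 8, and in non-injured libraries Irf3 exceeded Irf9, and Irf9 exceeded Irf2, in 5 of 8 each.

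The make-up of the family differed between the sides. Irf7 held a median of 14.9% of the summed TPM of the 8 genes in injured libraries (7.56% to 25.7%), against 2.72% in non-injured libraries (1.10% to 12.4%). The share of Irf8 had nearly equal medians, 36.4% in injured libraries (26.3% to 40.9%) and 35.7% in non-injured libraries (22.8% to 39.2%). The shares of Irf5, Irf3 and Irf2 had lower medians in injured libraries, at 17.4%, 9.35% and 5.54%, than in non-injured libraries, at 24.1%, 12.7% and 8.94%. Because shares add up to a whole, a larger share of Irf7 lowers the others, so these figures show unequal change and not which member moved. The summed TPM itself had a median of 642.6 in injured libraries (297.6 to 899.9) and 848.4 in non-injured libraries (207.1 to 1418), with wide overlap.

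**Figure D1:**
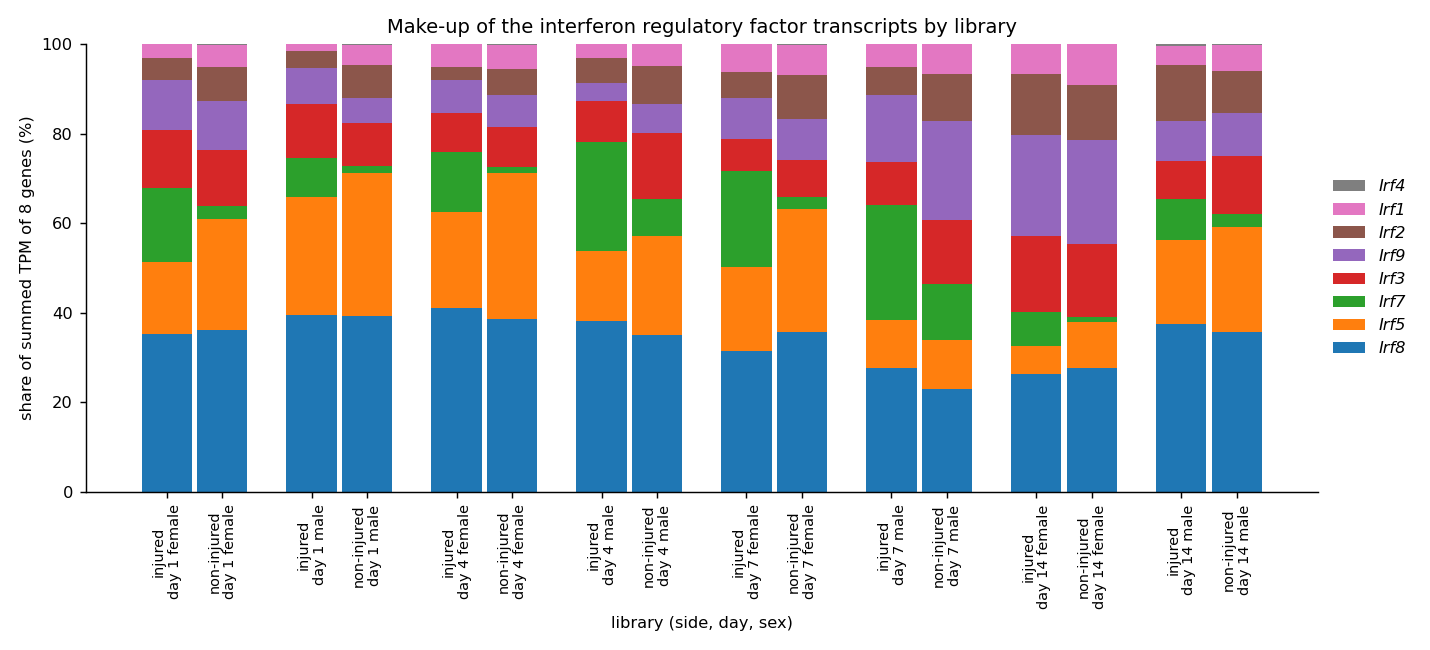
Stacked bars give the share of each of 8 genes in their summed TPM (%, vertical axis) for each library, with the injured library left of the non-injured library of the same day and sex. The band of Irf7 is wider on the injured side of all 8 pairs, with a median of 14.9% against 2.72%.

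Changes at the wound were tested on the counts, in edgeR's quasi-likelihood test with Benjamini-Hochberg adjustment over 28597 genes. Averaged over the 4 days, 2 of the 8 members were called at an adjusted p under 0.05, when 15.7% of all genes tested were called, 7.76% higher and 7.96% lower. Irf7 rose and Irf4 fell. The median log2 change of the 8 members was 0.02, against -0.32 over all genes tested and 0.20 over the 9025 genes whose mean reached 10 CPM. By single day, 0 of 8 were called at day 1 (1.05% of all genes, 0.472% higher and 0.58% lower), 1 of 8, Irf7, at day 4 (2.04%, 1.52% higher and 0.521% lower), 0 of 8 at day 7 (0.374%, 0.318% higher and 0.0559% lower) and 0 of 8 at day 14 (0.0594%, 0.0455% higher and 0.014% lower). At an unadjusted p under 0.05 there were 5 members at day 1 (Irf1, Irf2, Irf4, Irf5 and Irf7), 3 at day 4 (Irf4, Irf7 and Irf8), and Irf7 alone at days 7 and 14. Of all 28597 genes tested, 4400, 4234, 5476 and 4723 had such a p at days 1, 4, 7 and 14. On the same counts DESeq2 called Irf1, Irf4 and Irf7 at day 1 and Irf7 at each later day, and limma on log2(TPM + 1) called Irf1 at day 1, Irf7 at day 4 and no member at days 7 and 14. These tools called other numbers of all 28597 genes, 2463, 1876, 2136 and 2115 in DESeq2 and 565, 319, 179 and 115 in limma at the 4 days, against 301, 584, 107 and 17 in edgeR. Scaling mattered for the small differences. Over the 9025 genes whose mean reached 10 CPM the median change averaged over days was 0.20 on the log2 scale with the trimmed-mean factors used here, 0.06 with median-ratio factors and -0.27 on the TPM scale, and at day 7 it was 0.53, 0.16 and -0.52. Member values whose sign turned on another scale are therefore given with the member or in the closing section.

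**Figure D2:**
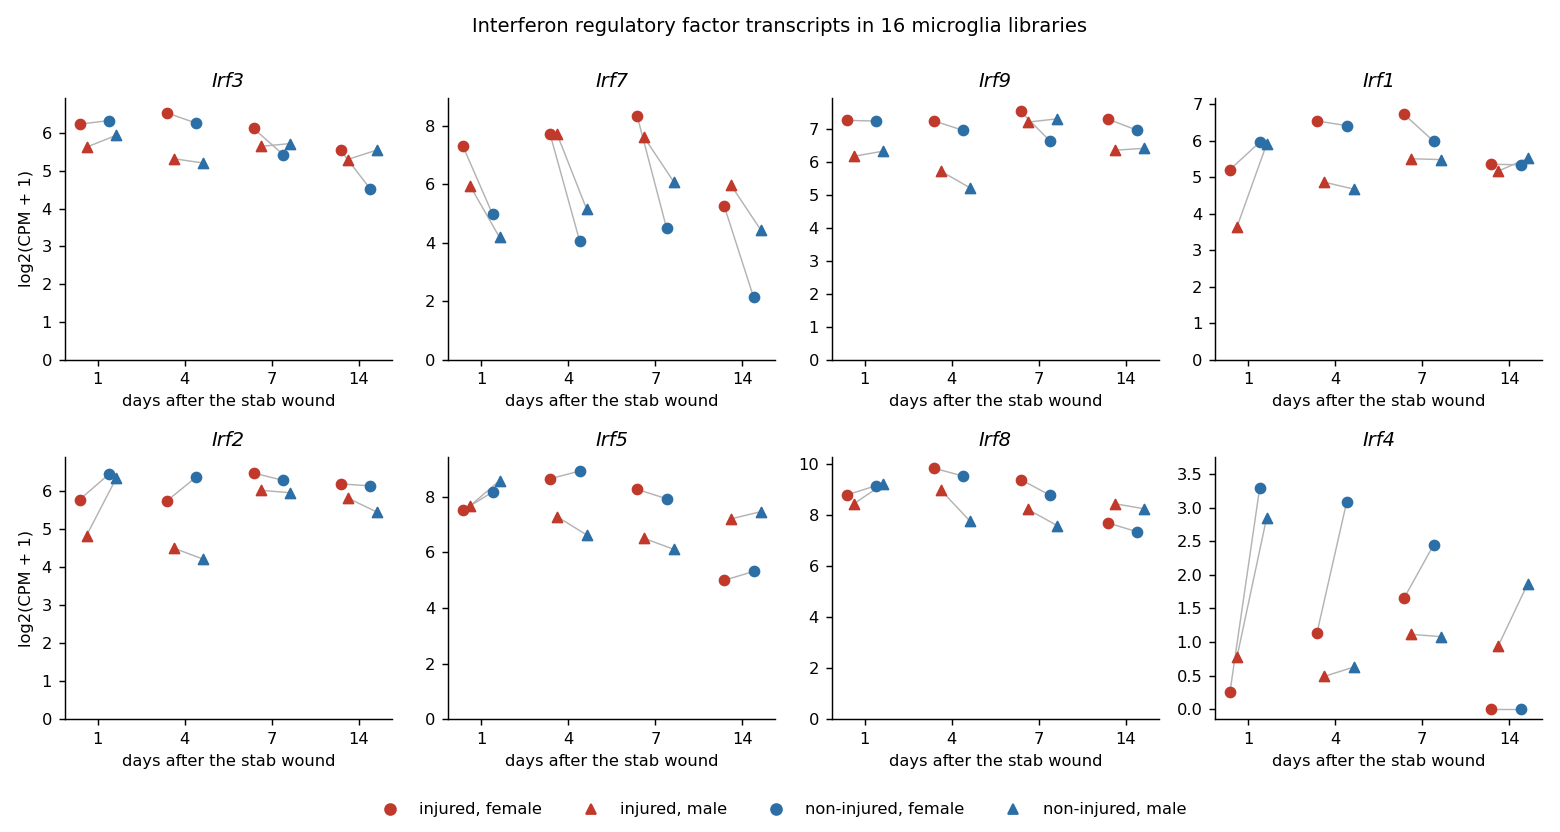
Each point is 1 library, with log2(CPM + 1) on the vertical axis and days after the wound on the horizontal axis; injured libraries (red) stand left of non-injured libraries (blue), and grey lines join the pair of 1 day and sex. Irf7 is higher on the injured side of all 8 pairs, and Irf4 is lower on the injured side in 6 of 8.

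Irf7, the factor that amplifies type I interferon production, was the member with the clearest rise. Injured libraries held 156, 209.3, 325 and 37.6 CPM in females at days 1, 4, 7 and 14, against 30.3, 15.7, 21.4 and 3.37 CPM in non-injured libraries of the same days. In males injured libraries held 60.8, 209.7, 194 and 61.6 CPM, against 17.1, 34.5, 67.1 and 20.8 CPM in non-injured libraries. All 8 pairs were higher at the wound, and 5 of 8 injured libraries lay above every non-injured library. The sides overlapped because the day 14 female, day 1 male and day 14 male injured libraries lay below the day 7 male non-injured library, the one with the highest sum of monocyte markers on its side.

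Averaged over days, Irf7 rose 6.03-fold (log2 change 2.59, SE 0.33, adjusted p = 0.001365, 8 pairs). The log2 change was 2.10 at day 1 (SE 0.64, adjusted p = 0.165), 3.17 at day 4 (SE 0.67, adjusted p = 0.0481), 2.71 at day 7 (SE 0.68, adjusted p = 0.107) and 2.39 at day 14 (SE 0.69, adjusted p = 0.189). These are all far above the shift of the median gene on any scale. The average kept its call when any 1 pair was left out (log2 change 2.30 to 2.91, adjusted p 0.000451 to 0.0308). The day 4 call was lost without any 1 pair except the day 14 male one (adjusted p 0.0574 to 0.182), without the pairing (0.358) and without the filter on low counts (0.0895), with log2 changes of 2.73 to 3.75. In the authors' deposited table, Irf7 was higher at the wound at all 4 days, with log2 fold changes of 2.17, 2.75, 2.16 and 1.94 and adjusted p of 0.00118, 1.455e-05, 0.00149 and 0.00491. Exons of Irf7 share 45 of 3776 bases with Phrf1 on the opposite strand, in libraries that keep no strand.

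**Figure D3:**
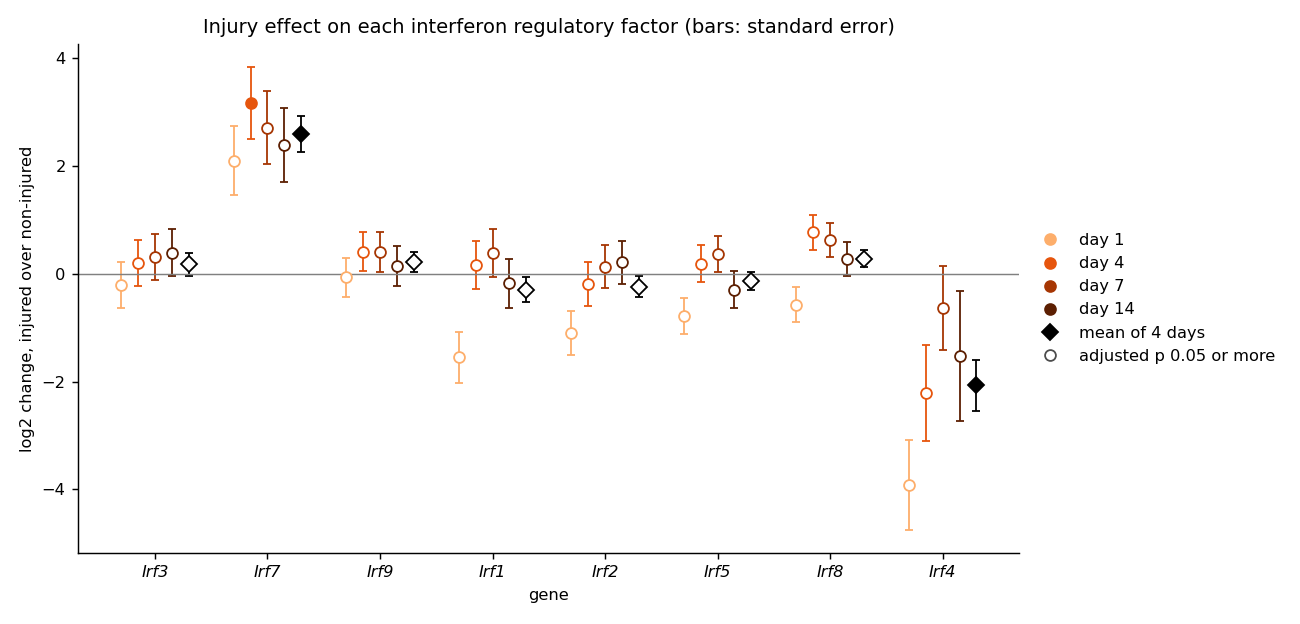
Points give the log2 change, injured over non-injured, with bars of 1 standard error for each gene at 4 days (circles) and averaged over them (diamonds); filled symbols have an adjusted p under 0.05. Irf7 lies between 2.10 and 3.17 at the 4 days, and Irf4 between -3.92 and -0.63.

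Markers of other cell types moved with Irf7, and in bulk samples more cells of a type and more RNA per cell cannot be told apart. Over all genes tested, 7.76% were called higher and 7.96% lower averaged over days. Of the 10 monocyte markers, 9 rose averaged over days and 0 fell, and all 8 pairs had a higher sum at the wound, with a range of 199.4 to 1505 CPM in injured libraries and 18.9 to 271.7 CPM in non-injured libraries. Of the 9 neutrophil markers 6 rose and 0 fell, with sums of 2.51 to 176 CPM in injured libraries and 0.0411 to 7.20 CPM in non-injured libraries. Of the 9 markers of border-associated macrophages, 4 rose (Ms4a7, Folr2, Pf4 and F13a1) and 0 fell, and 7 of 8 pairs had a higher sum at the wound, with 92.3 to 3595 CPM in injured libraries and 22.1 to 676 CPM in non-injured libraries. The other 5, among them Mrc1, Cd163 and Lyve1, were not called. F13a1 is in both this list and that of monocytes, so the 2 lists are not separate. The defining neutrophil gene Ly6g was at 0 in 4 of 8 injured and 3 of 8 non-injured libraries and never above 0.526 CPM. Plasmacytoid dendritic cells, which are known for high constant levels of IRF7, were represented by 9 markers, of which 2 rose, 1 fell and 6 were not called. In 3 of 8 pairs the sum of these 9 markers was higher at the wound, with 79.5 to 231 CPM in injured libraries and 174 to 690.3 CPM in non-injured libraries. That sum is mostly Tcf4, with a mean of 126 CPM in injured and 172 CPM in non-injured libraries, and Pacsin1, which fell and which reached 436.9 CPM in the day 4 male non-injured library, the one with the most neuronal RNA. The 2 that rose were Ly6d (log2 change 5.66, at most 2.92 CPM in any library) and Cox6a2 (1.66), and the median log2 change of the 9 was 1.66, so the sum and the median differ in direction. The library with the most Irf7, that of the injured day 7 female, held 1351 CPM of monocyte markers, of which F13a1 gave 825.8 CPM. The injured day 14 female library, with the least Irf7 on that side, held 199.4 CPM of monocyte markers. The most monocyte markers, 1505 CPM, were in the injured day 7 male library, with 194 CPM of Irf7. The injured day 4 libraries had more Irf7, 209.3 CPM in the female and 209.7 CPM in the male, with 747.5 and 388.3 CPM of monocyte markers. The part of these cells in the change of Irf7 was not tested.

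**Figure D4:**
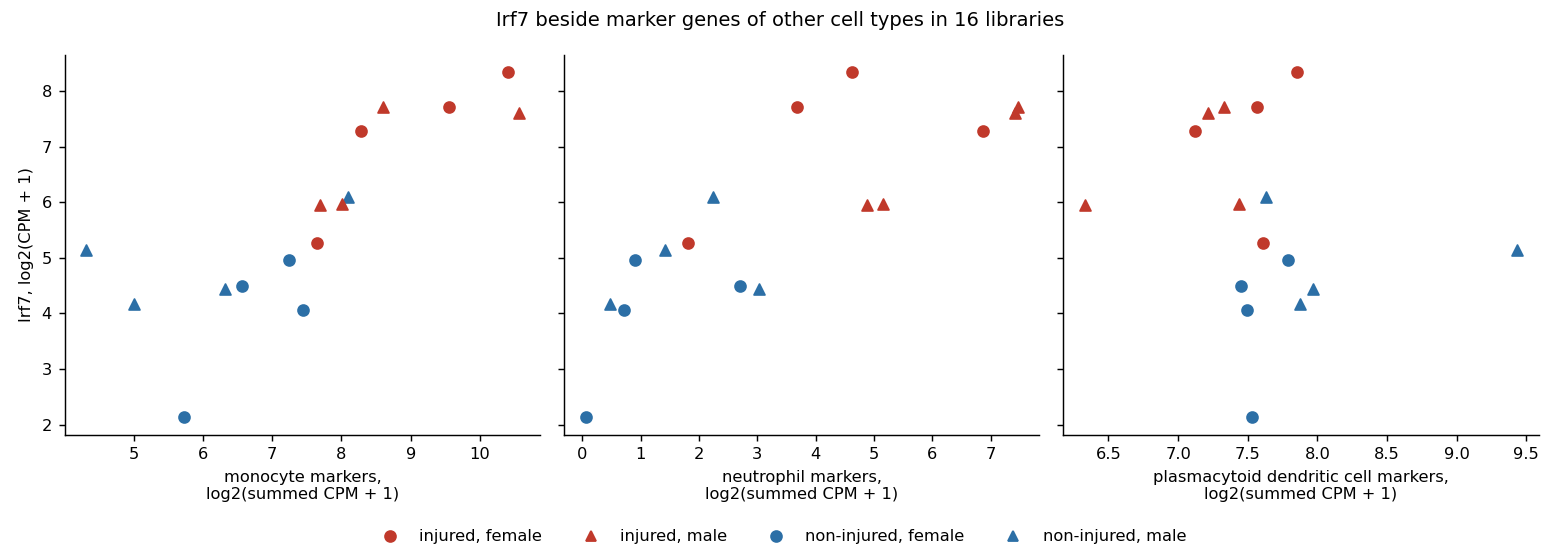
Each point is 1 library, with Irf7 as log2(CPM + 1) on the vertical axis and the summed CPM of 10 monocyte, 9 neutrophil or 9 plasmacytoid dendritic cell markers, as log2(CPM + 1), on the horizontal axes; red is injured and blue non-injured, circles are female and triangles male. Within each of the 8 pairs the injured library lies higher on both axes for monocyte and neutrophil markers, although the sides overlap across pairs, and the point farthest right in the dendritic cell panel is the day 4 male non-injured library, where Pacsin1 alone gives 436.9 of 690.3 CPM.

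Irf3, the constitutive partner of Irf7 at the interferon beta promoter, was not called in any comparison. It held 38.6 to 92.3 CPM in injured libraries (median 49.0) and 22.1 to 79.9 CPM in non-injured libraries (median 49.0), so the medians nearly coincided. Of its 8 pairs 4 were higher and 4 lower at the wound, with a log2 change averaged over days of 0.17 (SE 0.21, adjusted p = 0.701). On the TPM scale the sign turned, to -0.43 (limma, adjusted p = 0.137). Exons of Irf3 share 88 of 3442 bases with Bcl2l12 on the opposite strand, and the libraries keep no strand.

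Irf9, the DNA-binding subunit of the complex formed after type I interferon, had 52.3 to 186 CPM in injured libraries (median 150.2) and 36.3 to 159 CPM in non-injured libraries (median 111.5). It was higher in 5 of 8 pairs and lower in 3, and the log2 change averaged over days was 0.22 (SE 0.18, adjusted p = 0.497). That is close to the median of 0.20 over genes whose mean reached 10 CPM, against -0.32 over all genes tested. Irf9 took the value -0.31 on the TPM scale (limma, adjusted p = 0.266). At single days it lay between -0.07 at day 1 and 0.41 at day 4. Its exons share 123 of 5386 bases with Rnf31.

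Irf1 and Irf2, the activator and antagonist pair, were both lower at the wound at day 1 in both sexes, although neither was called there. Irf1 held 36.02 CPM in the female and 11.4 CPM in the male injured library of day 1, against 61.1 and 58.8 CPM in the non-injured libraries of those sexes. Its log2 change at day 1 was -1.54 (SE 0.47, adjusted p = 0.168), with adjusted p of 0.00784 in DESeq2, 0.0438 in limma on TPM and 0.0436 with the legacy dispersion estimate of edgeR. At days 4 and 7 Irf1 had 92.1 and 105 CPM in the injured female and 28.2 and 44.5 CPM in the injured male libraries, against 84.2 and 62.4 CPM in the non-injured female and 24.5 and 43.7 CPM in the non-injured male libraries. All 4 of those pairs were higher at the wound, by log2 changes of 0.16 at day 4 and 0.39 at day 7. These lay below the medians of the 9025 genes whose mean reached 10 CPM (0.25 and 0.53) and above those of all genes tested (-0.20 and -0.84). With median-ratio factors the day 4 value turned to -0.11, and on the TPM scale the values were -0.08 and -0.66 (limma). The day 14 log2 change was -0.17 and the average over days -0.29 (SE 0.23, adjusted p = 0.469). That average was called lower on the TPM scale (-0.75, limma, adjusted p = 0.0258). Exons of Irf1 share 135 of 3976 bases with Gm17334 on the opposite strand.

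Irf2 had 53.4 CPM in the female and 27.3 CPM in the male injured library of day 1, against 85.6 and 79.0 CPM in the non-injured libraries. The log2 change was -1.10 (SE 0.41, adjusted p = 0.249). At the later days the injured libraries of Irf2 held 21.5 to 87.3 CPM and the non-injured ones 17.4 to 81.1 CPM, with log2 changes of -0.19, 0.13 and 0.21 at days 4, 7 and 14. The day 7 value turned to -0.24 with median-ratio factors and -1.16 on the TPM scale (limma). The average over days was -0.24 (SE 0.20, adjusted p = 0.512), and it was called lower on the TPM scale (-0.71, limma, adjusted p = 0.0380). In the authors' deposited table both genes were lower at day 1, Irf1 with a log2 fold change of -1.40 (adjusted p = 0.00572) and Irf2 with -1.03 (adjusted p = 0.0231).

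Irf5 and Irf8 had the highest median TPM of the 8 genes on both sides, and neither was called at the wound. Irf8 ranked first in each library, whereas Irf5 ranked between 2 and 7 in injured and between 2 and 5 in non-injured libraries. Irf5, which acts downstream of Toll-like receptors on inflammatory cytokine genes, held 30.8 to 398 CPM in injured libraries (median 168) and 38.7 to 482 CPM in non-injured libraries (median 208). The lowest value on each side was the day 14 female library and the highest the day 4 female one. Irf5 had log2 changes of -0.79 at day 1 (SE 0.34, adjusted p = 0.308), 0.19 at day 4, 0.37 at day 7 and -0.29 at day 14. The values at days 4 and 7 turned to -0.082 and -0.0034 with median-ratio factors and to -0.26 and -0.73 on the TPM scale (limma). Irf5 was lower in 5 of 8 pairs, with an average of -0.13 (SE 0.17, adjusted p = 0.725). That average was called lower on the TPM scale (-0.66, limma, adjusted p = 0.0470). Exons of Irf5 share 411 of 2905 bases with Tnpo3 on the opposite strand.

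Irf8, the lineage factor of microglia and monocytes, had 442 CPM in the female and 347 CPM in the male injured library of day 1, against 571 and 595 CPM in the non-injured libraries. At day 4 the injured libraries held 921 and 510.4 CPM, against 741 and 217 CPM in non-injured libraries, and at day 7 they held 675 and 300.5 CPM, against 439 and 193 CPM. At day 14 they held 207 and 349.6 CPM, against 162 and 304 CPM in non-injured libraries. Both pairs of day 1 were lower at the wound and all 6 later pairs were higher. The log2 changes were -0.57, 0.77, 0.63 and 0.28 at days 1, 4, 7 and 14 (SE 0.32 each, adjusted p 0.300 to 0.682), and the average was 0.28 (SE 0.16, adjusted p = 0.303). On the TPM scale the values at days 7 and 14 and the average were -0.38, -0.04 and -0.18 (limma, adjusted p 0.550 to 1), opposite in sign to the counts, while day 4 kept its sign at 0.39 (adjusted p = 0.975). Median-ratio factors and DESeq2 turned no sign of Irf8 in these comparisons.

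Irf4, a factor of plasma cells, dendritic cells and alternatively activated macrophages, was scarce. Its summed counts were 6, 46, 63 and 0 in the injured female and 29, 11, 32 and 26 in the injured male libraries of days 1, 4, 7 and 14, against 326, 365, 153 and 0 in the non-injured female and 220, 14, 49 and 88 in the non-injured male libraries. As CPM, these were at most 2.15 in injured libraries (median 0.812) and at most 8.78 in non-injured libraries (median 3.55). A count of 0 in the day 14 female libraries allows up to 0.118 CPM in the injured and 0.123 CPM in the non-injured one (3 counts, counting error alone). The sides overlapped, with the higher values at days 1 and 4 in non-injured females and at day 1 in non-injured males.

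Averaged over days Irf4 fell 4.20-fold (log2 change -2.07, SE 0.47, adjusted p = 0.0164), and it was lower in 6 of 8 pairs and higher in 1. The log2 change was -3.92 at day 1 (SE 0.83, adjusted p = 0.0627), -2.21 at day 4 (SE 0.89, adjusted p = 0.277), -0.63 at day 7 (SE 0.78, adjusted p = 0.605) and -1.53 at day 14 (SE 1.20, adjusted p = 0.524). The authors' deposited table gave -3.80 at day 1 with an adjusted p of 0.00628. The call of the average was lost without the day 1 female pair (log2 change -1.84), the day 4 female pair (-1.65) and the day 7 female pair (-1.90). The call was also lost without the pairing (adjusted p = 0.0909), with the legacy dispersion estimate (0.116) and on the TPM scale (limma, -0.70, adjusted p = 0.124). Without the day 14 male pair (-1.67), day 14 rests on the female pair, which has 0 counts on both sides. The day 14 effect cannot be estimated there, so that fit cannot decide the call. Both fits to the 32 separate columns (-1.78, not called) include the same female pair as an effect of its own and cannot decide it either.

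Markers of B and plasma cells, dendritic cells, macrophages and neurons were set beside Irf4. Over all genes tested, 7.76% were called higher and 7.96% lower averaged over days. Of the 9 B and plasma cell markers 8 were tested, of which 1 rose (Igkc) and 1 fell (Ighm). In 7 of 8 pairs the sum of the 9 was lower at the wound, with 47.4 to 409.5 CPM in injured libraries and 65.0 to 607 CPM in non-injured libraries. The largest part of that sum is Ighm, with a mean of 144 CPM in injured and 343 CPM in non-injured libraries. The median log2 change of the 8 tested was 0.78, so the sum and the median differ in direction. The defining gene Pax5 was at 0 in 4 of 8 injured and 3 of 8 non-injured libraries, with no library above 2.64 CPM. Of the 9 conventional dendritic cell markers 2 rose, Ccr7 and Cd24a, and 0 fell, with sums of 17.9 to 61.3 CPM in injured libraries and 7.19 to 33.3 CPM in non-injured libraries. The monocyte and border-associated macrophage markers, given above with Irf7, rose in 9 of 10 and 4 of 9 cases, with F13a1 in both lists. The 7 neuron markers fell in 6 of 7 cases, and all 8 pairs had a lower sum at the wound. The part of any of these in the change of Irf4 was not tested.

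Whether the injury effect of a member depended on the day or the sex was tested directly. The test of equal effects on the 4 days called 0 of 8 members (0% of all genes tested, edgeR). DESeq2 and limma called 0 members, and in edgeR 0 members and 1819 of all 28597 genes had an unadjusted p under 0.05. The adjusted p ran from 0.675 for Irf1, Irf2, Irf4, Irf5 and Irf8 to 0.909 for Irf3. The difference between sexes called 0 of 8 (0% of all genes tested, edgeR). DESeq2 and limma called 0 members, and in edgeR 1 member and 2094 of all 28597 genes had an unadjusted p under 0.05. That 1 member was Irf7, whose log2 change was larger in females by 1.48 (SE 0.40, adjusted p = 0.438). Its pair log2 ratios, with 1 CPM added, ran from 2.33 to 3.86 in the 4 female pairs and from 1.52 to 2.57 in the 4 male pairs. The female non-injured libraries held 3.37 to 30.3 CPM and the male ones 17.1 to 67.1 CPM. On the non-injured side alone, the test of day called 0 of 8 members (0% of 24622 genes tested, edgeR), with an adjusted p of 1 for each. There 0 members and 352 of those genes had an unadjusted p under 0.05, and no other tool was run.

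The genes whose levels ran most like those of each member across the 16 libraries were picked by Pearson's r of log2(CPM + 1) among 9025 genes, as a description of libraries that share depth, sex and side. For Irf7 they were Oas1g, an oligoadenylate synthetase gene (r = 0.957), Zbp1, a nucleic acid sensor gene (r = 0.956), and Clic4, a chloride channel family gene (r = 0.949). For Irf8 they were Nagpa, a gene of lysosomal enzyme targeting (r = 0.964), Myo7a, a myosin gene (r = 0.939), and Jak3, a cytokine receptor kinase gene (r = 0.936). For Irf5 they were Dnm2, a gene of membrane fission (r = 0.983), Tor4a (r = 0.975) and Tfe3, a lysosomal transcription factor gene (r = 0.973). Those of Irf1 (Pnpla7, Casp2 and Tcn2), Irf2 (Blnk, Pacc1 and Inpp5k), Irf3 (Grpel2, Phka2 and Tmem43) and Irf9 (Cyfip1, Alas1 and Ints9) had r of 0.898 to 0.942. No gene was shared between the 7 sets of 3, and Irf4, under 10 CPM, was not compared in this way.

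The genes that feed signals into the factors were listed by step. Over all genes tested, 7.76% were called higher and 7.96% lower averaged over days. Interferon genes themselves were scarce: of 10 ligand genes 4 were tested, 0 were called, and Ifnb1 averaged 0.679 CPM in injured libraries and 0.161 CPM in non-injured libraries. Of 6 receptor genes 2 rose, Ifnar1, a type I receptor chain (174 CPM in injured and 105 CPM in non-injured libraries, log2 change 0.74, adjusted p = 0.0175), and Il10rb, a chain shared by the interleukin 10 and lambda receptors (0.65, adjusted p = 0.0425). Ifngr1, the ligand-binding chain of the interferon gamma receptor, fell, with 524.5 CPM in injured and 933.5 CPM in non-injured libraries (log2 change -0.85, adjusted p = 0.00531, lower in 8 of 8 pairs). Among the receptor kinase and STAT genes, Stat3 rose (log2 change 0.64, adjusted p = 0.0280), and Stat2, which encodes a partner of IRF9, was higher in 8 of 8 pairs without a call (0.69, adjusted p = 0.0721).

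Of 23 genes for sensors, adaptors and kinases upstream of the factors, 6 rose, 1 fell and 16 were not called, with a median log2 change of 0.28. Over all genes tested, 7.76% were called higher and 7.96% lower. The largest rise was that of Ikbke, which encodes the kinase IKK epsilon that phosphorylates IRF3 and IRF7. It averaged 32.2 CPM in injured and 3.08 CPM in non-injured libraries, with a log2 change of 4.19 (SE 0.49, adjusted p = 0.000469, higher in 8 of 8 pairs), and was called at days 1 and 4. Tbk1, the kinase with the same substrates, averaged 85.6 CPM in injured and 75.4 CPM in non-injured libraries and was not called (0.28, adjusted p = 0.442). Tlr8 rose by 2.39 (adjusted p = 0.00532). The gene listed as 5430427O19Rik rose by 1.00 (adjusted p = 0.0413), and Dhx58, an RNA sensor gene, by 0.90 (adjusted p = 0.0211). Tmem173, which encodes the DNA-signalling adaptor STING, fell, with 263 CPM in injured and 528 CPM in non-injured libraries (log2 change -0.89, adjusted p = 0.0208); it was added for its direction after its value was seen, as were Tbk1 and Stat2.

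Genes known to be induced by type I interferon moved together. Of 30 such genes 26 rose, 0 fell and 4 were not called, when 7.76% of all genes tested were called higher and 7.96% lower. Their median log2 change was 1.78, against -0.32 over all genes tested and 0.20 over the 9025 genes whose mean reached 10 CPM. Oas3 rose by 3.57 (31.3 CPM in injured and 3.63 CPM in non-injured libraries), Zbp1 by 2.96 (54.2 and 7.76 CPM), Rsad2, which encodes the antiviral enzyme viperin, by 2.93 (59.6 and 8.27 CPM), and Siglec1, a sialic acid receptor gene, by 2.78 (82.0 and 8.59 CPM), with adjusted p of 0.000560 to 0.00188. By day, 2 of the 30 were called at day 1, 13 at day 4 and 0 at days 7 and 14, with median log2 changes of 1.38, 2.61, 1.71 and 1.13, when 0.472%, 1.52%, 0.318% and 0.0455% of all genes were called higher. Ifit3 and Ifit3b, and Oas1a and its neighbours, are near-identical copies whose reads the counting could have split. The activity of IRF9 and IRF7 was not measured, and the part of other cell types in these changes was not tested.

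Of 25 tested targets of interferon gamma and IRF1, 12 rose, 0 fell and 13 were not called, with a median log2 change of 0.94. Over all genes tested, 7.76% were called higher and 7.96% lower. The chemokine gene Cxcl10 rose by 2.61 (96.0 CPM in injured and 13.5 CPM in non-injured libraries, adjusted p = 0.000801), the checkpoint ligand gene Cd274 by 2.17 (adjusted p = 0.00152), the class I transactivator gene Nlrc5 by 1.69 (adjusted p = 0.00210) and B2m, the light chain gene of class I molecules, by 1.34 (adjusted p = 0.00454). The GTPase genes of this list were not called, among them, named after their values were seen, Irgm2 (52.9 CPM in injured and 87.0 CPM in non-injured libraries, log2 change -0.61, adjusted p = 0.107) and Gbp2 (62.4 and 39.8 CPM, 1.34, adjusted p = 0.0543).

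Over all genes tested, 7.76% were called higher and 7.96% lower averaged over days. Of 16 DNA-binding partners and lineage factors that act beside IRF8 and IRF4, 4 rose, 3 fell and 9 were not called. The largest changes among those at 10 CPM or more were those of Sall1, a microglial identity factor that fell by 1.72 on the log2 scale (87.5 CPM in injured and 283 CPM in non-injured libraries, adjusted p = 0.000461), Id2, an inhibitor of helix-loop-helix factors that rose by 1.55 (adjusted p = 0.000726), Cebpb, a myeloid activator gene that rose by 1.46 (adjusted p = 0.0436), and Klf4, a zinc finger factor gene that fell by 1.41 (adjusted p = 0.0412). Named after their values were seen, Batf, a partner of both factors at composite elements, rose by 1.29 (adjusted p = 0.0108), and Spi1, which encodes PU.1, was not called (0.69, adjusted p = 0.0975). Of 16 inhibitors of the factors or of interferon signalling, 4 rose and 0 fell, namely Usp18, a brake on the type I receptor (1.64, adjusted p = 0.00337), Socs3 (1.25, adjusted p = 0.00943), Tnfaip3 (1.10, adjusted p = 0.0184) and Ptpn6 (0.58, adjusted p = 0.0464). The IRF2-binding protein genes Irf2bp1, Irf2bp2 and Irf2bpl of this list were not called, with mean levels of 4.24, 76.3 and 43.8 CPM in injured and 7.75, 67.4 and 48.1 CPM in non-injured libraries.

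**Figure D5:**
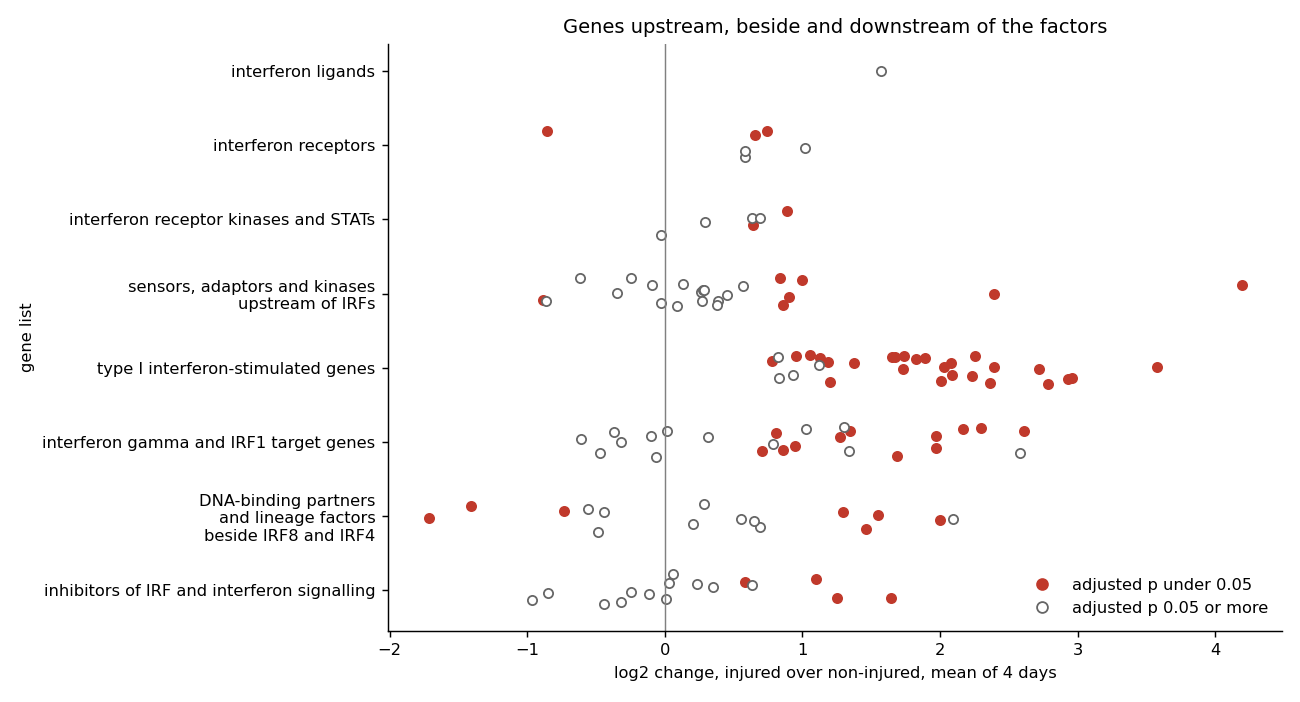
Each point is 1 gene, placed by its log2 change (injured over non-injured, averaged over 4 days) in the row of its list; filled points have an adjusted p under 0.05, and 3 ligand genes with too few counts for a standard error are not drawn. The 30 type I interferon-stimulated genes all lie above 0, and 26 of them are filled.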

How the data were processed

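RNA of sorted microglia was made into unstranded polyA libraries. The authors deposited estimated counts and TPM per gene, which Salmon 1.0.0 and DESeq2 1.26.0 produced per the submitters' processing notes; the genome build is not given in the sources used here. Per the file headers, the authors' deposited comparison tables hold a normalized mean signal, log2 fold changes, their standard errors and a test statistic (scores), and p-values. The members and lists were chosen with earlier results of these data known.

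Counts were rounded to whole numbers and the 2 columns of each group summed into 16 libraries. Genes with enough counts (edgeR's filterByExpr, minimum 10 per day and side) were fitted in edgeR 4.0.16 (R 4.3.3), with trimmed-mean factors, 8 pair means and 4 day effects, which leave 4 residual degrees of freedom. Calls are Benjamini-Hochberg adjusted p under 0.05 over 28597 genes. CPM are counts relative to the scaled library size. Alternatives used median-ratio factors, no filter, DESeq2 1.42.0, limma 3.58.1 on log2(TPM + 1), no pairing, the 32 columns, and libraries left out. The fit was tested on simulated data. From each list the text names up to 4 called genes of at least 10 CPM with the largest average change, unless stated. Gene overlaps come from GENCODE M21 (GRCm38), in which 54487 of 55385 gene IDs were found. Intervals and floors cover counting error only. Protein sequences were not used here. Some genes of the lists are not reported here.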

Additional observations from a re-analysis of the deposited data

How the results depend on the processing

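The rise of Irf7 averaged over days was called under all 18 alternatives run, with log2 changes of 1.997 to 2.91. Its day 4 call and the fall of Irf4 were lost, or for Irf4 could not be decided, under those named with them above. The 32-column fits take the 2 columns of a group as replicates, and the cause of other differences between settings was not tested.

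The number of genes called at days 1, 4, 7 and 14 was 301, 584, 107 and 17. It was 538, 626, 91 and 40 with median-ratio factors, 101, 210, 16 and 2 without the filter, 2463, 1876, 2136 and 2115 in DESeq2, 565, 319, 179 and 115 in limma on TPM, 1487, 1344, 1320 and 1009 with the legacy dispersion estimate, and 2, 5, 0 and 7 without the pairing. Averaged over days, 4496 genes were called, and 1801 without the pairing. The difference between days called 225 genes in DESeq2, 1 in limma on TPM and 343 with the legacy estimate, against 0, and the difference between sexes 152 in DESeq2 and 87 with the legacy estimate, against 0. Without the filter 27 genes differed between days on the non-injured side, against 0. Leaving out 1 pair gave 0 to 771 genes at day 1, 0 to 577 at day 4, 0 to 632 at day 7, 0 to 146 at day 14, 1517 to 4054 averaged over days, 0 to 1 between days, 0 between sexes and 0 to 47 on the non-injured side. A day then rests on 1 pair, assumed to vary like those of other days. Leaving out column 1 or 2 of each group gave 366 to 396, 677 to 724, 133 to 160 and 13 to 30 genes at the 4 days and 4449 to 4485 averaged over them.

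With 32 columns and the replicate number as a block, 14877, 15108, 16179 and 11969 genes were called at the 4 days, 12136 averaged over days, 16167 between days and 10238 between sexes. With the replicate number left out of that fit the counts were 14903, 15174, 16207, 11994, 12136, 16217 and 10246. Deviations of same-numbered columns had correlations of -0.0189 to 0.0663, so the numbers were not taken as pairing the columns.

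All member values whose sign turned were uncalled, as log2 changes. With median-ratio factors they were 0.00881 for Irf9 at day 1, -0.113, -0.0745 and -0.0821 for Irf1, Irf3 and Irf5 at day 4, and -0.240, -0.0571 and -0.00342 for Irf2, Irf3 and Irf5 at day 7. In DESeq2 the same 7 were 0.00922, -0.108, -0.0736, -0.0777, -0.240, -0.0571 and -0.00186. In limma on TPM they were -0.0783, -0.0805, -0.257 and -0.0242 for Irf1, Irf3, Irf5 and Irf9 at day 4, -0.663, -1.16, -0.805, -0.726, -0.383 and -0.706 for Irf1, Irf2, Irf3, Irf5, Irf8 and Irf9 at day 7, -0.327, -0.0447 and -0.107 for Irf3, Irf8 and Irf9 at day 14, -0.429, -0.184 and -0.311 for these 3 averaged over days, and -0.118 for Irf9 between sexes. Irf9 at day 1 was 0.0218 without the filter, and Irf5 at day 4 was -0.0695 without the pairing. With 1 pair left out, the log2 changes that crossed 0 ran -0.169 to 0.0198 for Irf9 at day 1, -0.633 to 0.431 for Irf2 at day 4, -0.267 to 0.789 for Irf5 at day 4, -0.155 to 0.244 for Irf2 at day 7, -0.0858 to 0.752 for Irf3 at day 7, -1.01 to 0.0553 for Irf4 at day 7, -0.113 to 0.959 for Irf9 at day 7, -0.371 to 0.0249 for Irf1 at day 14, -0.268 to 1.07 for Irf3 at day 14, -0.0689 to 0.356 for Irf9 at day 14, -0.345 to 0.25 for the difference of Irf2 between sexes, -0.332 to 0.0769 for the difference of Irf5 between sexes and -0.235 to 0.212 for the difference of Irf8 between sexes.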
